A study of Homo sapiens with 24 samples.

Results

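The genes described here are 40 genes of ribosome biogenesis and the nucleolus, chosen by name from the 26645 gene entries of the count table. All 40 were found and all 40 passed the filter on low counts that left 14741 genes for testing. They were read in MB468 (MDA-MB-468), an established triple-negative breast cancer cell line that needs methionine (Met) to proliferate, and in MB468res-R8, 1 revertant clone obtained from it by long culture in homocysteine (Hcy) medium, which proliferates when Met is replaced by Hcy. The list was put together after URB2 had been seen to fall in MB468 at 2 h, so the 2 h values of MB468 and the 2 h difference between the lines chose it and are given as a description only. The 0 h libraries of both lines and the 2 h libraries of MB468res-R8 enter these contrasts, so every URB2 value is given without a test. URB2 nevertheless stays in the counts of called members.

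Both lines were kept in DMEM with dialyzed serum, vitamin B12, glutamine, cysteine and 100 µM Met (Met+), and cells collected from this medium are the 0 h groups. The other groups were collected 0.5, 2 and 12 h after a switch to medium with 370 µM DL-homocysteine and no Met (Met-Hcy+). Each of the 8 groups has 3 libraries, 24 in all, and the labels name no introduced gene or deletion in either line. No group was switched to fresh Met+ medium or left in Met+ medium until 12 h, so the medium change, time in culture and loss of Met cannot be told apart. The labels do not say whether the replicates of a group came from separate experiments, so p-values measure the spread between these libraries. RNA came from whole cultures, in which fewer cells and less RNA per cell cannot be told apart.

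Library totals ran from 11745553 to 36496655 counts, with a median of 20503827, and spike-in RNAs took 0.2014 to 0.3026% of them. All 5 epithelial and all 6 basal-like breast markers were above 1 CPM in every library, and 4 of 5 fibroblast and 4 of 5 blood markers were under 1 CPM in every library, the exceptions being COL1A1 (15.46 to 72.57 CPM) and CD14 (20.78 to 159.9 CPM). Of 3 hormone receptor and HER2 markers, ESR1 (4.069 to 22.09 CPM) and ERBB2 (37.55 to 94.88 CPM) were above 1 CPM in every library and PGR was under it in every library. Of 4 endothelial markers none was under 1 CPM in every library. PECAM1, VWF and CDH5 reached at most 2.825 CPM, while KDR was at 150 to 390.5 CPM in MB468 and 7.246 to 57.96 CPM in MB468res-R8, and its part in the differences between the lines was not tested. MB468 2 h replicate 2 stood apart, with 1697 CPM on RNAs that lack a poly(A) tail against 7.946 to 32.14 CPM in the other 23 libraries, and member counts, medians and called fold changes for MB468 at 2 h are given with and without it, except those with spike-in scaling, which used all libraries. Single members had between 25 and 97061 counts in a library. Together the 40 genes took 0.957% ± 0.0178 (SD, n = 3) of counts in MB468 at 0 h and 0.842% ± 0.0119 (SD, n = 3) in MB468res-R8 at 0 h.

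Ribosomes are made in the nucleolus, where RNA polymerase I transcribes a long precursor that is folded, modified, cut and joined with ribosomal proteins. The small subunit processome forms on the precursor as it is made, small nucleolar ribonucleoproteins (snoRNPs) direct its methylation and pseudouridylation, and separate sets of factors build the large and the small subunit. The work is among the most costly of a growing cell, and its genes are known for rising with growth signals and falling when nutrients are withdrawn. The 40 genes were grouped as 4 of RNA polymerase I, 16 of the small subunit processome and small subunit maturation, 7 of snoRNPs, 10 of large subunit assembly and 3 abundant nucleolar proteins.

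Normalized counts are counts scaled with edgeR's TMM factors. To set genes beside each other, they were divided by the kilobases of all annotated exons of a gene, merged. That length was 8311 bases for NPM1 and 2138 for FBL and can exceed that of the transcript expressed. Levels and ranks between genes are therefore rough. At 0 h in MB468 the level per kilobase ran from 13.5 ± 3.48 (SD, n = 3) for RRN3, which brings RNA polymerase I to its promoter, to 5565 ± 155 for NPM1, a histone-binding chaperone of the nucleolus. NCL, which binds the precursor RNA, was at 5029 ± 123 normalized counts per kilobase and NHP2, a subunit of the pseudouridylating snoRNPs, at 3460 ± 142, followed by NOLC1 (2434 ± 28.2) and FBL (2422 ± 100). NOLC1 and FBL did not differ beyond their spread. URB2, which acts early in large subunit assembly, lay between HEATR1 and NOL11 at 350 ± 10.3 normalized counts per kilobase.

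**Figure D1:**
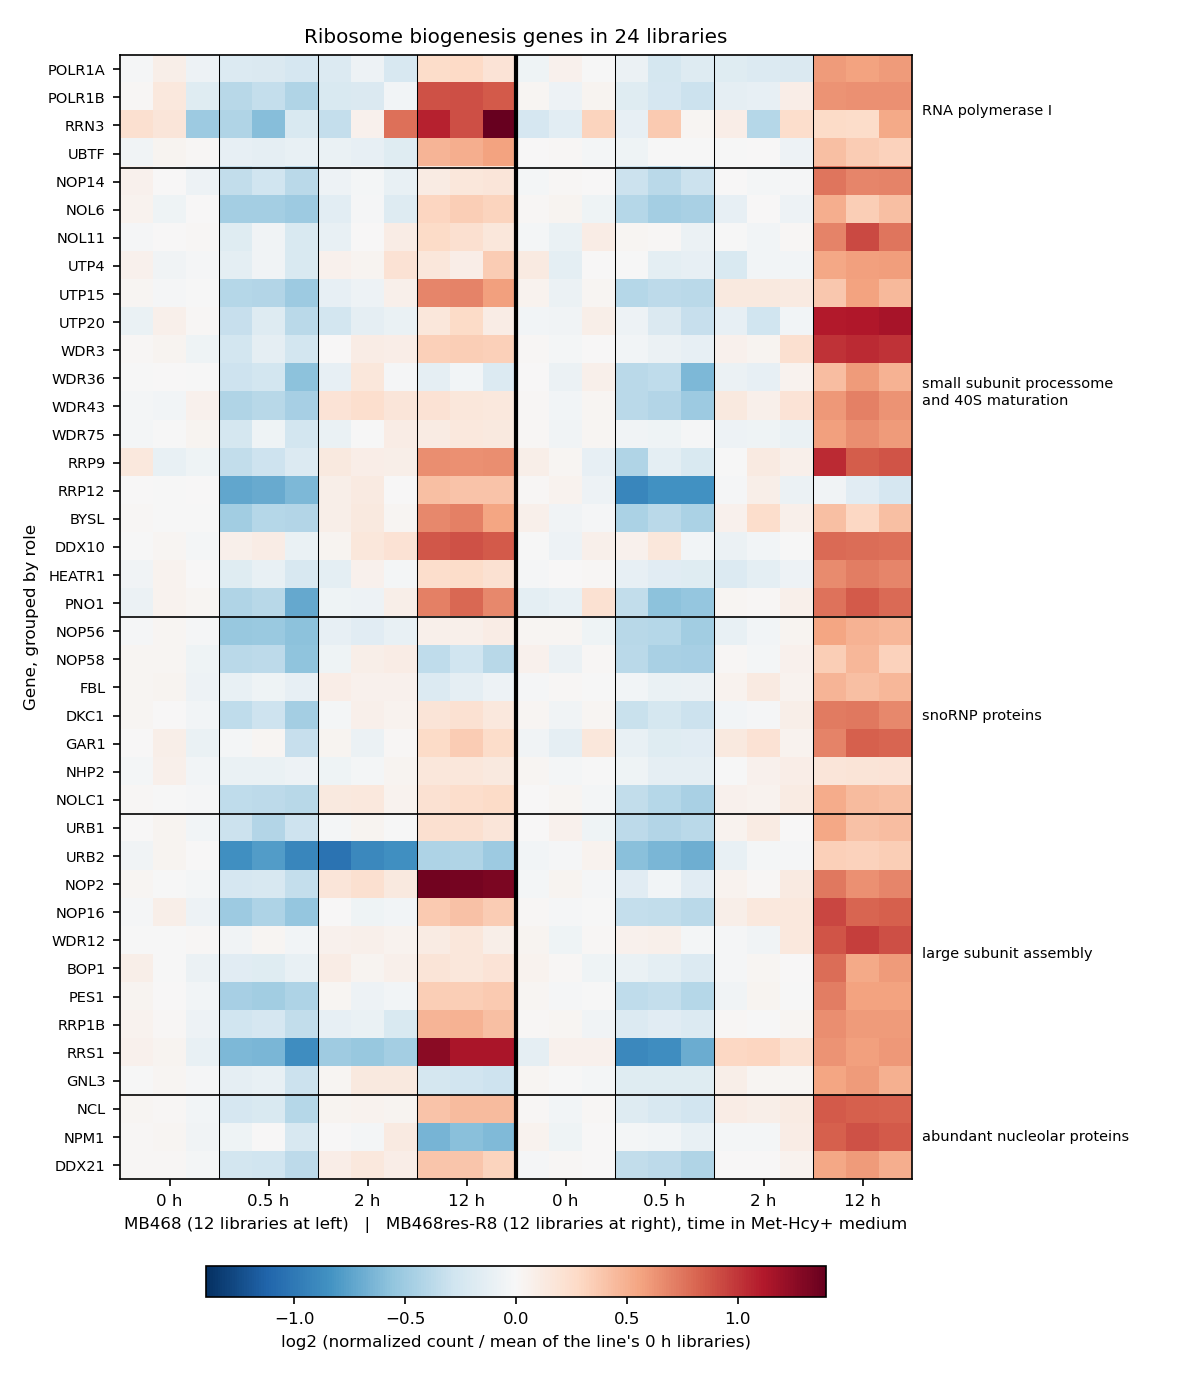
Log2 ratio of each library's normalized count to the mean of the 0 h libraries of the same line, for the 40 genes (rows, grouped by role) in 24 libraries (columns, 3 per group, MB468 at the left and MB468res-R8 at the right). Blue columns at 0.5 h in both lines, mostly red columns at 12 h, and NPM1, NOP58, GNL3, FBL and URB2 blue at 12 h in MB468 while red in MB468res-R8 are the features to see.

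As a description, the promoters of the members were searched for the E-box CACGTG, a sequence known to be bound by factors of the MYC family. Promoters were taken from RefSeq on GRCh38.p14, from 250 bases before to 50 bases after each start, and 33 of the 40 members had at least 1. The 7 without one were URB2, RRP12, RRS1, NOP58, NOLC1, BOP1 and RRP1B. The motif reads the same on both strands. It was present in at least 1 listed promoter of 14 of these 33 genes (42.4%), against 8.77% of the 27305 genes of the table and 12.1% of the 11216 tested genes in it. The 14 sites follow with 10 bases on each side where the promoter reaches that far, 5′ to 3′ on the strand of the gene, with the E-box in capitals and its position in parentheses.

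NOP14 (chr4:2963386-2963391, minus strand): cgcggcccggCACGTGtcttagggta
NOL6 (chr9:33473906-33473911, minus strand): catttccgccCACGTGggaagctatg
UTP4 (chr16:69132633-69132638, plus strand): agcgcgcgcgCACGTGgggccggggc
UTP20 (chr12:101280095-101280100, plus strand): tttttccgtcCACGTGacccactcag
WDR43 (chr2:28894670-28894675, plus strand): cacggacgaaCACGTGgctgcagcgg
RRP9 (chr3:51941904-51941909, minus strand): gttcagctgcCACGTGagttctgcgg
BYSL (chr6:41921527-41921532, plus strand): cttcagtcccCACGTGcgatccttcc
PNO1 (chr2:68157897-68157902, plus strand): tgcagctgcgCACGTGtttcagccgg
FBL (chr19:39846368-39846373, minus strand): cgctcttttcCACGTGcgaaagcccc
GAR1 (chr4:109815793-109815798, plus strand): gccagaggggCACGTGgcgccggtga
NOP2 (chr12:6568251-6568256, minus strand): gtccggattgCACGTGgagggccgc
PES1 (chr22:30591892-30591897, minus strand): cttggcagggCACGTGcgggaggaag
GNL3 (chr3:52686038-52686043, plus strand): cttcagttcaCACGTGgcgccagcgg
DDX21 (chr10:68956616-68956621, plus strand): ccgggtgtccCACGTGgtccccggcg

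All 14 lay within 35 bases of the start, 4 with their opening base before it and 10 after it, in the transcribed part. In MB468res-R8 at 0.5 h, the genes with a match had a median log2 fold change of -0.30 (from -0.47 to -0.07) and those without one -0.14 (from -0.44 to 0.12). In MB468 the medians at 0.5 h were -0.29 with a match and -0.21 without, and at 12 h they were 0.30 and 0.24 in MB468 and 0.63 and 0.64 in MB468res-R8. The ranges overlapped in each of these comparisons, no test was made, and a match is a description of the letters and not of binding.

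In Met+ medium at 0 h, most of the 40 genes were lower in MB468res-R8 than in MB468, by small amounts. Of the 40, 27 were called lower (background 27.1% of all genes tested) and 1 higher (background 26.4%), at an adjusted p under 0.05 from edgeR (quasi-likelihood F test, adjusted by Benjamini and Hochberg over the 14741 genes), and the median log2 fold change was -0.18. All 3 abundant nucleolar proteins, 6 of 7 snoRNP genes, 7 of 10 large subunit genes, 9 of 16 small subunit genes and 2 of 4 RNA polymerase I genes were lower. Scaled on the spike-ins instead, 34 were lower and none was higher, with the median of the 40 genes at -0.49 and that of all genes at -0.31. Over all 14741 genes, 6495 were lower and 1144 higher with that scaling.

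NOP56, a core protein of the methylating snoRNPs, had the lowest ratio. Its normalized counts were 5735, 5900 and 5710 in the MB468 libraries and 4297, 4318 and 4069 in those of MB468res-R8, groups that did not overlap (log2 fold change -0.45, SE 0.0396, adjusted p = 8.99e-13 from edgeR). URB2 had 2032, 2155 and 2104 normalized counts in MB468 and 1572, 1593 and 1666 in MB468res-R8, a log2 fold change of -0.38 given as a description. NPM1 was lower by less, with 46910, 47080 and 44760 in MB468 against 43630, 40530 and 42370 in MB468res-R8 (log2 fold change -0.13, adjusted p = 0.0125 from edgeR).

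PES1, a subunit of the PeBoW complex that acts with BOP1 and WDR12 in large subunit processing, was the 1 gene called higher. It had 5039, 4915 and 4785 normalized counts in MB468 and 5428, 5251 and 5307 in MB468res-R8 (log2 fold change 0.12, SE 0.0405, adjusted p = 0.014 from edgeR), but -0.19 when the libraries were scaled on the spike-ins. The call was also lost without any 1 of MB468 0 h replicates 2 and 3 and MB468res-R8 0 h replicates 1 and 3, with log2 fold changes from 0.0877 to 0.1053 in those 4 fits. Because a clone can differ from its parent in stretches of a chromosome, the 10 tested genes on each side were read for each of the 27 lower members. The median of these neighbours was below 0 for 13 of the 27, a share not computed around other genes. Over the 27 members, these medians had a median of 0.0018. The medians furthest below 0 were those around FBL, the ribose methyltransferase of the nucleolus (-0.31 with 18 of 20 neighbours below 0, against -0.36 for FBL), BYSL, a small subunit factor (-0.26 with 12 of 20, against -0.18 for BYSL), NOP56 (-0.17 with 14 of 20) and UTP15 (-0.16 with 12 of 20). Those furthest above 0 were around DKC1 (0.186), POLR1A (0.159), NOP2 (0.146) and URB1 (0.130).

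Most of the genes had fallen in both lines at 0.5 h in Met-Hcy+ medium. In MB468, 31 of 40 were called lower (background 16.4%) and none higher (background 17.6%), with a median log2 fold change of -0.29. In MB468res-R8, 29 of 40 were lower (background 16.3%) and none higher (background 17.4%), with a median of -0.23. Of the 40 genes, 28 were lower in both lines, as were 10.9% of all genes tested. All of these called members had groups that did not overlap, but how often this held among all called genes was not computed. Scaling on the spike-ins turned no direction but gave 11 members lower in MB468res-R8 and 32 in MB468. The medians were then -0.18 and -0.51 for the 40 genes and 0.04 and -0.20 for all genes. Over all 14741 genes, that scaling gave 829 lower and 1194 higher in MB468res-R8, and 2828 lower and 459 higher in MB468. The 40 genes took 0.810% ± 0.0389 (SD, n = 3) of counts in MB468 and 0.732% ± 0.0138 (SD, n = 3) in MB468res-R8 at this time.

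RRP12, which acts in the maturation and export of both subunits, fell the most in MB468res-R8. Its normalized counts were 2704, 2760 and 2534 at 0 h and 1411, 1482 and 1477 at 0.5 h (log2 fold change -0.87, SE 0.0493, adjusted p = 3.85e-18 from edgeR). In MB468 RRP12 had 2547, 2528 and 2548 at 0 h and 1529, 1559 and 1645 at 0.5 h (log2 fold change -0.69, SE 0.0493, adjusted p = 6.04e-15 from edgeR). Every library at 0.5 h was below every library at 0 h of its line.

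URB2 had the lowest ratio in MB468, from 2032, 2155 and 2104 normalized counts at 0 h to 1156, 1222 and 1114 at 0.5 h (log2 fold change -0.85), a description, since these 0 h libraries belong to the contrast that URB2 was selected on. In MB468res-R8 URB2 fell from 1572, 1593 and 1666 to 1074, 1036 and 1002 (log2 fold change -0.63). That value is a description too, since the 2 h difference between the lines used the 0 h libraries of MB468res-R8. RRS1, a large subunit assembly factor, was next, with a log2 fold change of -0.70 in MB468 and -0.82 in MB468res-R8, and NOP56 had -0.54 and -0.42. Log2 fold changes between -0.35 and -0.50 in both lines were also those of NOP16, PES1, NOL6, PNO1, WDR36, WDR43, BYSL, NOP58, UTP15 and NOLC1.

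Genes that were not called at 0.5 h in either line were RRN3, NOL11, UTP4, DDX10, FBL, GAR1, WDR12 and NPM1. NPM1 had 44450, 46380 and 39600 normalized counts in MB468 (log2 fold change -0.09) and 41450, 41050 and 39330 in MB468res-R8 (-0.05), which overlapped the values at 0 h. NHP2 was called in MB468res-R8 only (log2 fold change -0.10, adjusted p = 0.0335 from edgeR, and -0.09 with adjusted p = 0.0801 in MB468), and WDR3, WDR75 and UBTF in MB468 only (-0.21, -0.18 and -0.11, against -0.08, -0.04 and -0.03). The test of the difference between the lines called none of the 40 in either direction, where 1.7% of all genes were lower and 1.2% higher in their response in MB468res-R8. Without MB468res-R8 0 h replicate 3, 1 member was called.

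**Figure D2:**
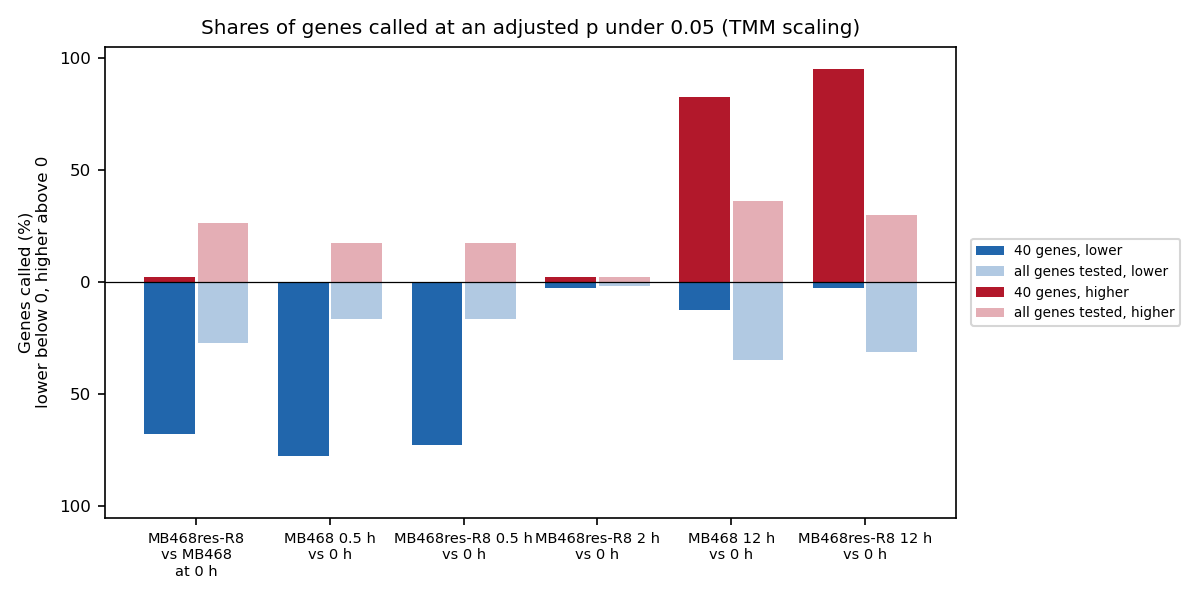
Percent of genes called lower (below 0) and higher (above 0) in each comparison, for the 40 genes (dark bars) and all 14741 genes tested (pale bars). At 0.5 h 77.5% of the 40 genes in MB468 and 72.5% in MB468res-R8 were lower, and at 12 h 82.5% and 95% were higher.

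At 2 h few of the genes were called in MB468res-R8. There 1 of 40 was called lower (background 1.85%) and 1 higher (background 2.52%), with a median log2 fold change of 0.01, shares near the background. POLR1A, the largest subunit of RNA polymerase I, was the lower one, with 2862, 3118 and 2980 normalized counts at 0 h and 2656, 2611 and 2594 at 2 h (log2 fold change -0.19, adjusted p = 0.00925 from edgeR). RRS1 was the higher one, with 944.5, 1078 and 1080 at 0 h and 1263, 1276 and 1197 at 2 h (log2 fold change 0.28, adjusted p = 0.00257 from edgeR). Neither was called with spike-in scaling, where the log2 fold changes were -0.23 and 0.23. POLR1A was not called without MB468res-R8 0 h replicate 2 (-0.1581) or 2 h replicate 2 (-0.1837), nor was RRS1 without 0 h replicate 1 (0.2055). URB2 had 1500, 1580 and 1588 normalized counts at 2 h in MB468res-R8, which overlapped its 0 h libraries (log2 fold change -0.05, a description).

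In MB468 at 2 h, the comparison the list was chosen on, URB2 had 1024, 1125 and 1154 normalized counts (log2 fold change -0.93, and -0.95 without replicate 2), below every 0 h library. Of the 40 genes, 6 passed the threshold with lower values (background 7.47%) and 4 with higher ones (background 8.88%), and without replicate 2 they were 6 and 2, with a median log2 fold change of 0.01 in both cases. RRS1 had 820.4, 802.5 and 835.1 normalized counts at 2 h against 1210, 1189 and 1081 at 0 h (log2 fold change -0.50, and -0.49 without replicate 2). NOP56, NOLC1 and DDX21 no longer passed the threshold without replicate 2. Under spike-in scaling 36 of the 40 were lower and the 4 higher ones, WDR43, NOLC1, NOP2 and DDX21, turned below 0, with the median of the 40 genes at -0.41 and that of all genes at -0.42. Over all 14741 genes, 9271 were lower and 240 higher with that scaling. For the difference between the lines at 2 h, none of the 40 was lower (background 2.88%) and 2 were higher in MB468res-R8 (background 2.19%), URB2 with 0.88 and RRS1 with 0.78 on the log2 scale (0.90 and 0.77 without replicate 2). These values are a description, as the genes were selected on this contrast.

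At 12 h in Met-Hcy+ medium the genes were mostly above their 0 h levels, modestly in MB468 and more in MB468res-R8. In MB468, 33 of 40 were called higher (background 36.1%) and 5 lower (background 34.7%), with a median log2 fold change of 0.24. In MB468res-R8, 38 of 40 were higher (background 30.2%) and 1 lower (background 31.1%), with a median of 0.61. The rise in MB468 depends on the scaling: with spike-in totals 10 of the 40 were higher and 6 lower, the median of the 40 genes was 0.01 and that of all genes -0.23, and 11 of the 33 turned below 0. In MB468res-R8 37 were higher and none lower with spike-in totals, at a median of 0.63 beside 0.00 for all genes. Over all 14741 genes, spike-in totals gave 2538 higher and 5922 lower in MB468, and 2766 higher and 3121 lower in MB468res-R8. The 40 genes took 1.144% ± 0.0131 (SD, n = 3) of counts in MB468 and 1.344% ± 0.0106 (SD, n = 3) in MB468res-R8.

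In MB468 at 12 h the highest member was NOP2, an rRNA cytosine methyltransferase of large subunit assembly. It had 2815, 2751 and 2691 normalized counts at 0 h and 7021, 6958 and 6852 at 12 h, far apart (log2 fold change 1.33, SE 0.0421, adjusted p = 3.32e-27 from edgeR). With spike-in scaling its log2 fold change was 1.10. The annotation gives NOP2 54.4% of its exon bases in common with another entry on the same strand, so its reads could have been split.

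RRS1 rose from 1210, 1189 and 1081 normalized counts to 2776, 2568 and 2564 (log2 fold change 1.18, SE 0.0575, adjusted p = 4.27e-21 from edgeR). Its 12 h libraries were all above those of 0 h, after values of 634.8 to 750.3 at 0.5 h. RRS1 shares 11.3% of its exon bases with another entry on the same strand. RNA polymerase I genes rose as well, all 4 of 4 (3 of 4 with spike-in totals, where POLR1A was at 0.01 and not called). RRN3 had the largest log2 fold change of them, 1.14 (0.89 with spike-in totals), on low counts. POLR1B, the second catalytic subunit, was at 0.88, UBTF, which binds the promoter of the rRNA genes, at 0.52, and POLR1A at 0.24. DDX10, an RNA helicase (0.87), PNO1 (0.72), UTP15 (0.65), BYSL (0.65) and RRP9 (0.64) led the small subunit genes, of which 15 of 16 rose, although 6 of the 15 (NOP14, NOL11, UTP4, UTP20, WDR43 and WDR75) turned below 0 with spike-in totals.

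The 5 genes that fell in MB468 at 12 h were NPM1, URB2, NOP58, GNL3 and FBL. NPM1 had 46910, 47080 and 44760 normalized counts at 0 h and 29480, 30790 and 30050 at 12 h, without overlap (log2 fold change -0.62, SE 0.0453, adjusted p = 6.24e-15 from edgeR). URB2 had 1551, 1563 and 1475 at 12 h (log2 fold change -0.46), a description, since the 0 h libraries belong to the contrast URB2 was selected on. NOP58, a core protein of the methylating snoRNPs (-0.34), GNL3, a nucleolar GTPase known as nucleostemin (-0.27), and FBL (-0.13) fell less. The 0 h and 12 h libraries of FBL overlapped. NPM1, NOP58, GNL3 and FBL kept their direction and their call with spike-in scaling. URB2 was at -0.69 there, again a description.

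In MB468res-R8 at 12 h, UTP20, a large scaffold protein of the small subunit processome, rose the most. It had 1343, 1328 and 1464 normalized counts at 0 h and 2986, 2993 and 3063 at 12 h (log2 fold change 1.13, SE 0.0619, adjusted p = 9.97e-18 from edgeR). WDR3, another processome protein, rose from 2509, 2427 and 2482 to 4967, 5104 and 4982 (log2 fold change 1.02, SE 0.0446, adjusted p = 4.59e-22 from edgeR). In both genes every 12 h library was far above every 0 h library.

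NHP2 had the smallest called rise in MB468res-R8, from 4677, 4480 and 4570 normalized counts to 5160, 5175 and 5232 (log2 fold change 0.18, adjusted p = 8.93e-05 from edgeR), and was not called with spike-in scaling (0.20). URB2 had the next smallest, with 2022, 2020 and 2039 at 12 h against 1572, 1593 and 1666 at 0 h (log2 fold change 0.33, a description). The 2 genes without a called rise were RRN3 (0.38, adjusted p = 0.126 from edgeR) and RRP12, which was lower with 2571, 2383 and 2264 normalized counts against 2704, 2760 and 2534 at 0 h, groups that overlapped (log2 fold change -0.15, adjusted p = 0.00628 from edgeR). No member was called lower without any 1 of MB468res-R8 0 h replicates 1 and 2 and 12 h replicate 3.

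All 10 large subunit genes, all 7 snoRNP genes and all 3 abundant nucleolar proteins rose in MB468res-R8 at 12 h, with WDR12 (0.92), NOP16 (0.86), NPM1 (0.86) and NCL (0.84) next to RRP9 (0.92) behind the leading pair. NPM1 had 43630, 40530 and 42370 normalized counts at 0 h and 75070, 77950 and 76650 at 12 h, the opposite of its course in MB468. DDX21, a nucleolar helicase, rose in both lines, though in MB468 it was at 0.13 and not called with spike-in totals. It went from 18410, 18380 and 17810 to 23900, 23790 and 22580 in MB468 (log2 fold change 0.36) and from 16030, 16310 and 16190 to 23460, 24470 and 23010 in MB468res-R8 (0.55).

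**Figure D3:**
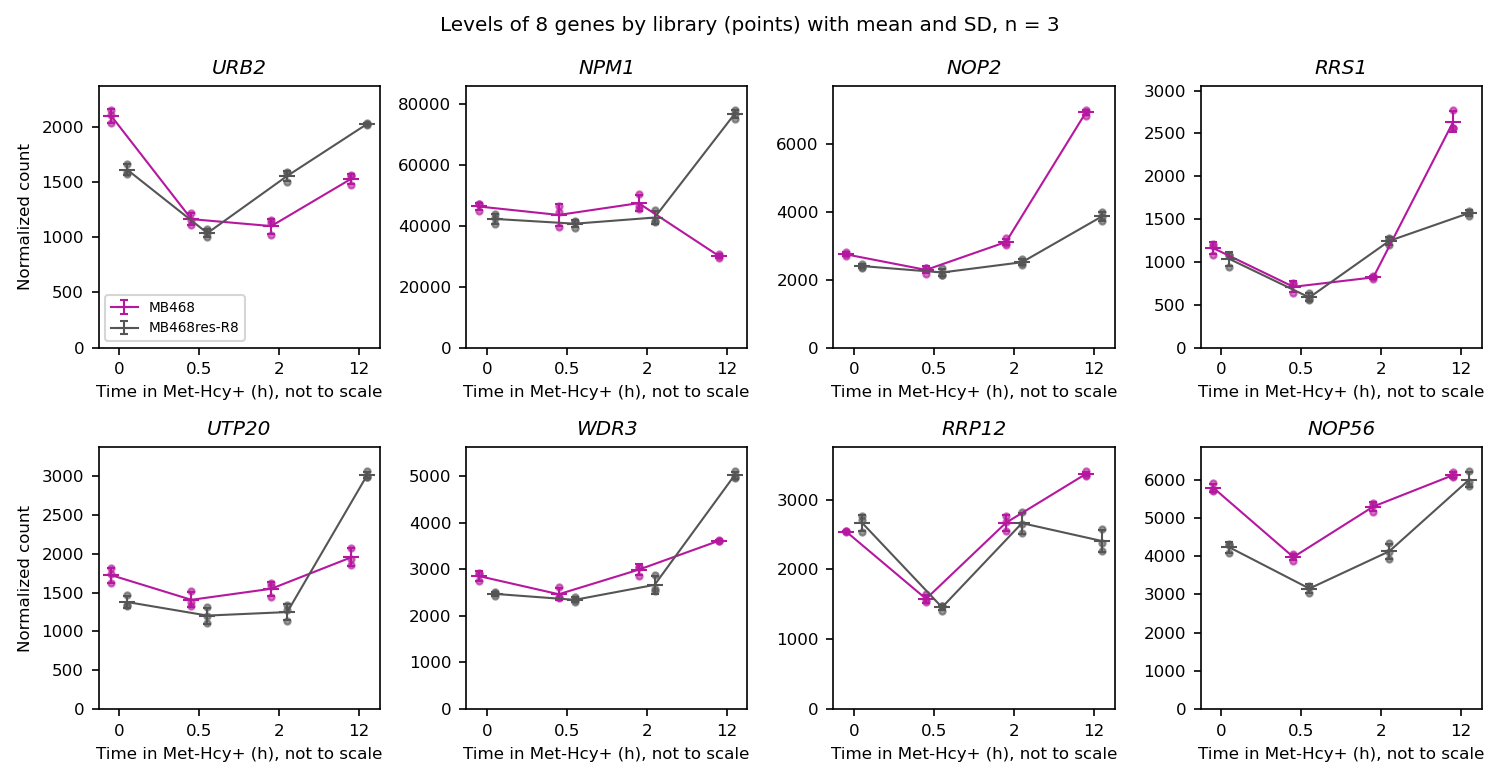
Normalized counts of 8 genes at 0, 0.5, 2 and 12 h in Met-Hcy+ medium (times not to scale) in MB468 (magenta) and MB468res-R8 (grey), with each library as a point and the mean and SD of 3 libraries as a bar. URB2 stayed at 1024 to 1154 at 2 h in MB468 while it was at 1500 to 1588 in MB468res-R8, and NPM1 at 12 h was at 29480 to 30790 in MB468 and 75070 to 77950 in MB468res-R8.

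Set side by side at 12 h, 31 genes were higher in both lines (18% of all genes tested), 5 were lower in MB468 and higher in MB468res-R8 (5.99% of all genes), and 1, RRP12, was higher in MB468 and lower in MB468res-R8 (5.58% of all genes). The other 3 were called in 1 line only, RRN3 higher in MB468 and NOP56 and WDR36 higher in MB468res-R8. The difference between the responses, in which each line is set against its own 0 h libraries, was tested in the same model. It called 28 of 40 genes with a higher response in MB468res-R8 (background 26.2%) and 7 with a lower one (background 30.3%), with a median of 0.38. With spike-in totals 27 were higher and none was lower, at a median of 0.64 beside 0.20 for all genes. Over all 14741 genes, 4052 were higher and 1745 lower with spike-in totals.

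NPM1 had the largest difference, 1.48 on the log2 scale (SE 0.0642, adjusted p = 6.91e-21 from edgeR). UTP20 followed with 0.95 (SE 0.0868, adjusted p = 1.03e-11 from edgeR), then GNL3 (0.82), WDR12 (0.80), URB2 (0.79, a description, since it draws on the MB468 0 h libraries), NOP58 (0.72) and WDR3 (0.68). Of the methylating snoRNP proteins, NOP58, FBL (0.58) and NOP56 (0.42) were each higher in their response in MB468res-R8, although in MB468 itself NOP58 and FBL were lower at 12 h and NOP56 was not called. The pseudouridylating subunits DKC1 (0.53) and GAR1 (0.50) were higher too, while NHP2 was at 0.03 (adjusted p = 0.632 from edgeR).

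NOP2 responded less in MB468res-R8 than in MB468, from 2358, 2476 and 2385 normalized counts to 4015, 3737 and 3864 (log2 fold change 0.69), a difference of -0.65 (SE 0.06, adjusted p = 4.01e-12 from edgeR) that was -0.39 and not called with spike-in scaling. RRS1 (-0.57), RRP12 (-0.55), BYSL (-0.27), POLR1B (-0.24) and UBTF (-0.15) were the others of this direction together with RRN3, and POLR1B and UBTF turned to 0.01 and 0.11 with spike-in totals. RRN3 had the lowest difference, -0.77 (SE 0.301, adjusted p = 0.0288 from edgeR), on low counts. Its normalized counts were 65.5, 62.95 and 39.35 at 0 h and 117.9, 104.6 and 154.6 at 12 h in MB468, and 69.79, 73.83 and 102 at 0 h and 98.35, 97.93 and 118 at 12 h in MB468res-R8, where the groups overlapped.

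The RRN3 difference is uncertain, since the gene has pseudogene copies with which the counting could have shared its reads, and since it was not called with spike-in scaling (-0.51) or without MB468 0 h replicate 3 (-0.5618), MB468 12 h replicate 3 (-0.5755), MB468res-R8 0 h replicate 3 (-0.5487) or MB468res-R8 12 h replicates 1 (-0.677) or 2 (-0.6797). The number with a lower response went from 7 to 4 without MB468 0 h replicate 3, MB468res-R8 0 h replicate 3 or MB468res-R8 12 h replicate 2. NPM1 also has many processed pseudogenes. The library kit does not mark the strand, and genes on the opposite strand overlap 28.0% of the exon bases of NHP2 (RMND5B), 23.1% of HEATR1 (LGALS8), 20.7% of NOP14 (NOP14-AS1) and 17.1% of WDR3 (SPAG17), whose reads cannot be told apart from those of the members.

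**Figure D4:**
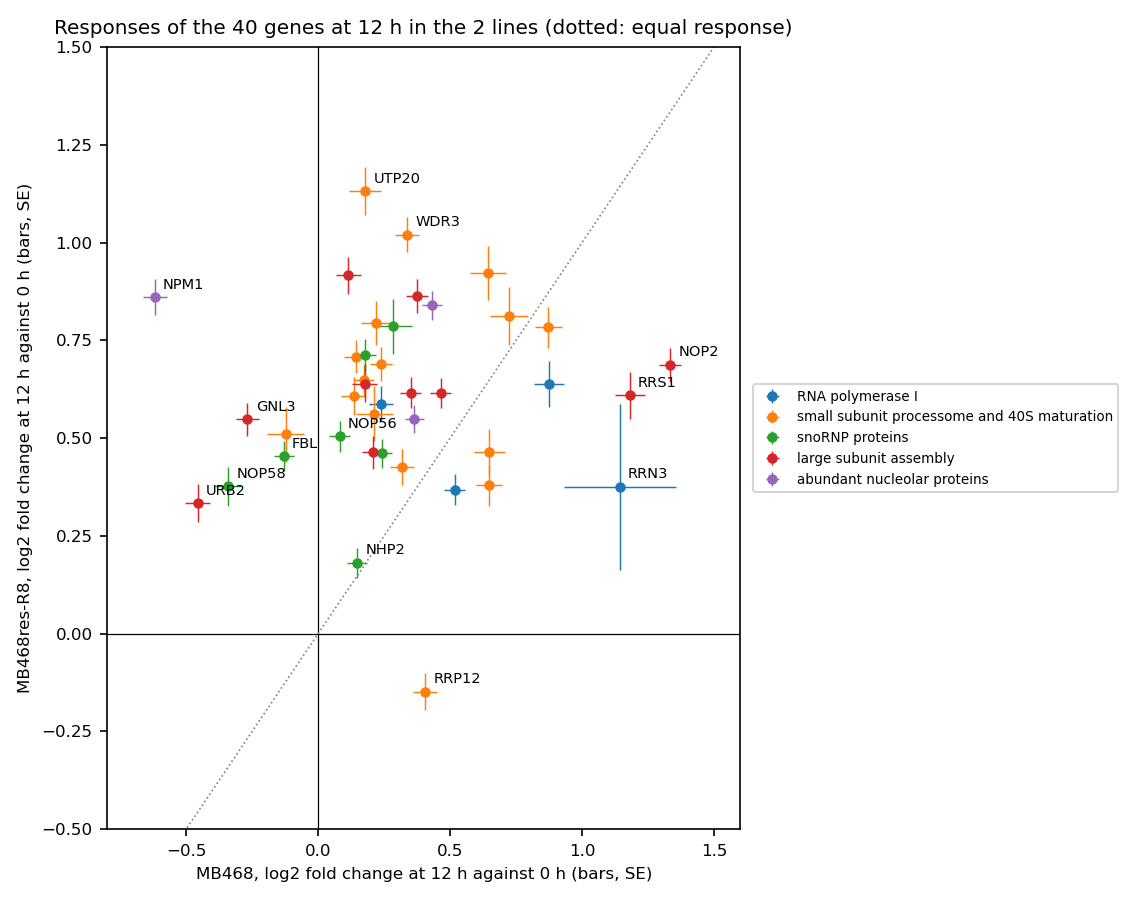
Log2 fold change at 12 h against 0 h in MB468 (x axis) and MB468res-R8 (y axis) for the 40 genes, coloured by role, with standard errors as bars and equal responses on the dotted line. NPM1 (-0.62 and 0.86), URB2 (-0.46 and 0.33), NOP58, GNL3 and FBL lie at the upper left, NOP2 (1.33 and 0.69) and RRS1 (1.18 and 0.61) at the right, and RRP12 (0.41 and -0.15) alone below 0 on the y axis.

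URB2 (GRCh38, chromosome 1, 229626247 to 229660200, plus strand), which the list was selected on, is described here at all times, with no test of its values. Of the 40 genes, 34 had their lowest group mean at 0.5 h in MB468 (24% of all genes tested) and 33 in MB468res-R8 (25.1%), while in MB468 the lowest mean of URB2 and of UBTF was at 2 h. Its means in MB468 were 2097 ± 61.4 (SD, n = 3) at 0 h, 1164 ± 54.3 at 0.5 h, 1101 ± 68.1 at 2 h and 1530 ± 47.6 at 12 h, and the libraries of 0.5 and 2 h overlapped. In MB468res-R8 they were 1610 ± 49.3, 1037 ± 35.9, 1556 ± 48.8 and 2027 ± 10.3, with the libraries of 0 and 2 h overlapping. UBTF in MB468 had 2856, 2841 and 2882 normalized counts at 0.5 h and 2898, 2860 and 2743 at 2 h, which overlapped.

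The wider pathway was read with 125 further genes of the same roles, of which 123 were tested. At 0 h 54 were lower (43.9%, background 27.1%) and 13 higher in MB468res-R8, and 84 and 3 with spike-in totals (6495 and 1144 of all 14741 genes). At 0.5 h 68 were lower (55.3%, background 16.4%) and 2 higher in MB468, and 75 and none with spike-in totals (2828 and 459 of all genes). In MB468res-R8 at 0.5 h 60 were lower (48.8%, background 16.3%) and 4 higher, and 12 and 1 with spike-in totals (829 and 1194 of all genes). At 2 h 8 were lower (6.5%) and 10 higher (8.13%) in MB468, shares near the background of 7.47% and 8.88%. Without replicate 2 they were 7 and 8, and with spike-in totals 104 and none (9271 and 240 of all genes). In MB468res-R8 at 2 h none was lower and 4 were higher (3.25%, background 2.52%), and none either way with spike-in totals (65 and 115 of all genes). At 12 h 71 were higher (57.7%, background 36.1%) and 17 lower in MB468 (median log2 fold change 0.20). In MB468res-R8 102 were higher (82.9%, background 30.2%) and 2 lower (median 0.45). With spike-in totals 33 were higher and 25 lower in MB468 (2538 and 5922 of all genes). In MB468res-R8 they were 85 higher and 1 lower (2766 and 3121 of all genes).

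At 0.5 h the lowest called gene of this list was PPAN, a large subunit factor, in MB468 (205 ± 9.74 to 103 ± 7.48 normalized counts, log2 fold change -0.99) and CD3EAP, an RNA polymerase I subunit, in MB468res-R8 (249 ± 20.3 to 127 ± 2.57, log2 fold change -0.98). In the other line the values were close, with PPAN at -0.94 in MB468res-R8 and CD3EAP at -0.86 in MB468. RIOK2, a kinase of small subunit maturation, was among the few that rose, by 0.21 in MB468 and 0.43 in MB468res-R8 on the log2 scale. At 12 h GLTSCR2, a large subunit assembly factor, was the lowest called gene in both lines, with 2289 ± 179 to 1291 ± 57.6 normalized counts in MB468 (-0.82) and 1855 ± 102 to 1411 ± 61.4 in MB468res-R8 (-0.39). ZNF593, a large subunit factor, was the highest called gene in MB468 (634 ± 137 to 1756 ± 77.9, log2 fold change 1.48). In MB468res-R8 the highest called gene was WDR46, with 8.047, 13.67 and 325.7 normalized counts in the 3 libraries at 12 h, so that its value rests on replicate 3.

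The line difference at 12 h called 68 of the 123 with a higher (55.3%, background 26.2%) and 20 with a lower response in MB468res-R8 (16.3%, background 30.3%), and 67 and 1 with spike-in totals (4052 and 1745 of all genes). At 0.5 h it called none, and at 2 h 5 higher and 1 lower (4 and none without MB468 2 h replicate 2). By role, the genes of the nuclear exosome and of rRNA trimming had the smallest share lower at 0.5 h in MB468, 3 of 14 (21.4%, background 16.4%). The others were 4 of 10 of the snoRNP, 6 of 12 of the RNA polymerase I, 23 of 37 of the small subunit and 32 of 50 of the large subunit genes. These shares were not tested against each other.

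The ribosomal proteins themselves were read in the same way, with no test against the 40 genes. Of 77 genes of cytosolic ribosomal proteins, 1 was lower (1.30%, background 16.4%) and 1 higher at 0.5 h in MB468, and 2 were lower (2.60%, background 16.3%) and 1 higher in MB468res-R8, and none either way in both lines with spike-in totals. At 12 h 70 were lower (90.9%, background 34.7%) and none higher in MB468 (median log2 fold change -0.40, and -0.64 with spike-in totals), and 42 were higher (54.5%, background 30.2%) and 1 lower in MB468res-R8 (median 0.12, and 14 higher and none lower with spike-in totals). The difference between the lines at 12 h called 71 of the 77 higher in MB468res-R8 (92.2%, background 26.2%) and none lower (median 0.59). Ribosomal protein genes have many pseudogenes, so single values of this list are uncertain and none is given. Of 76 tested genes of mitochondrial ribosomal proteins, 15 were lower (19.7%) and 4 higher at 0.5 h in MB468 and 14 (18.4%) and 3 in MB468res-R8, where the lower shares were near the background of 16.4% and 16.3%. With spike-in totals they were 18 and none in MB468 and none either way in MB468res-R8. The spike-in counts over all genes are those given above for each time. At 12 h 40 were higher (52.6%, background 36.1%) and 18 lower in MB468 (14 and 20 with spike-in totals), and 52 were higher (68.4%, background 30.2%) and 4 lower in MB468res-R8 (35 and none).

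**Figure D5:**
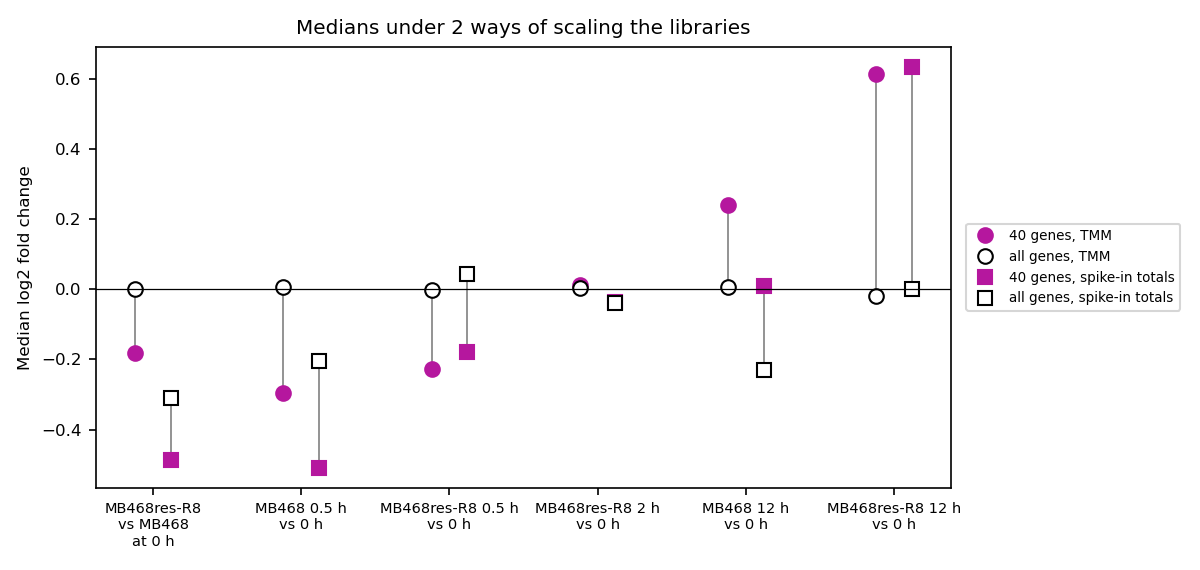
Median log2 fold change of the 40 genes (filled) and of all genes tested (open) with TMM factors (circles) and with spike-in totals as library sizes (squares) in 6 comparisons. A change of library sizes moves all genes of a library by the same amount, so the gap between the 40 genes and all genes is fixed by construction. In MB468 at 12 h the median of the 40 genes was 0.24 with TMM factors and 0.01 with spike-in totals.

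The 2 scalings answer different questions, since TMM sets the bulk of genes equal while spike-in totals refer each library to the added RNA, and whether the spike-ins were added per cell or per amount of RNA is not given in the sources used here. Relative to the median of all genes with TMM factors, the 40 genes stood at -0.30 on the log2 scale in MB468 at 0.5 h and at -0.22 in MB468res-R8, and at 12 h 0.23 above it in MB468 and 0.63 above it in MB468res-R8. Another set of library sizes cannot change these gaps beyond rounding and fitting, so they say nothing about which scaling to use. The spike-in share of counts was 0.213% ± 0.00999 (SD, n = 3) in MB468 at 0 h and 0.266% ± 0.0246 at 12 h, and 0.261% ± 0.00983 and 0.256% ± 0.0356 in MB468res-R8, and its part in the results was not tested beyond this.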

How the data were processed

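Poly(A) RNA of 24 libraries was sequenced by the authors with a kit that does not mark the strand, aligned with HISAT2 2.1.0 to GRCh38/hg38 with the spike-in sequences, and counted per gene with featureCounts (Subread 1.5.3), and the deposited table holds these raw counts for 26645 gene entries and 92 spike-ins. The authors' table of normalized counts (18 libraries) and their table of DESeq2 fold changes and p-values were not used.

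All 24 libraries entered 1 edgeR model (version 4.0.16, R 4.3.3), with 8 group means, TMM factors and robust quasi-likelihood dispersions, after filterByExpr (minimum count 10, minimum total 15) had left 14741 genes. Calls required p under 0.05 after Benjamini-Hochberg adjustment across these genes. The response in MB468 was subtracted from that in MB468res-R8 for each difference between the lines. Normalized counts are printed to 4 significant digits. On simulated counts with 200 changed genes the code was tested for recovery of the known changes.

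The members and gene lists were chosen with earlier results of these data known. All members are accounted for by role. Values in every library are given for URB2 and, at 0 h, 12 h and for the 12 h difference, for the called members with the highest and lowest fold changes (up to 2 each, groups apart), and at 0.5 h and in MB468res-R8 at 2 h for those with the smallest p. The library values of DDX21, UBTF, WDR46, NPM1 at 0.5 h, RRS1 at 2 h in MB468, and NOP2 and RRP12 at 12 h in MB468res-R8 were added after their values were seen, and so were the E-box windows, in place of whole promoters. Alternatives were DESeq2 1.42.0 (size factors, and its Wald test), spike-in totals as library sizes, other filters, fewer groups in the model, a replicate block, a threshold of 0.01 and leaving out each library. Positions and overlaps come from GENCODE on GRCh38, whose release need not be the authors'.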

Additional observations from a re-analysis of the deposited data

Results flagged for a closer look

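The test of the difference between the lines called 35 of the 40 genes at 12 h. Of these, 28 had a higher response in MB468res-R8 (background 26.2%), URB2 among them as a description, and 7 a lower one (background 30.3%). At 2 h it called 2 as higher, URB2 and RRS1 (background 2.19%, so near the share of all genes), a contrast on which the list was selected. The genes named for the 12 h difference (MB468res-R8 minus MB468, on the log2 scale) were NPM1 with 1.48, UTP20 with 0.95, URB2 with 0.79 (a description, since it draws on the MB468 0 h libraries of the contrast URB2 was selected on), NOP2 with -0.65 and RRN3 with -0.77, the last on low counts. NPM1 and UTP20 were also called with spike-in totals as library sizes, and NOP2 and RRN3 were not. No group held enough libraries for a check of single outlying values.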

How the results depend on the processing

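Counts of called members, lower and higher, changed most with spike-in totals as library sizes. There the numbers were 0 higher at 0 h, 11 lower in MB468res-R8 at 0.5 h, 0 lower and 0 higher in MB468res-R8 at 2 h, 36 lower and 0 higher in MB468 at 2 h, 10 higher in MB468 at 12 h, 0 lower in MB468res-R8 at 12 h, and 0 lower for the 12 h difference. Counts over all genes with that scaling are given with the results above. PES1 at 0 h turned from 0.12 to -0.19. With a threshold of 0.01, 0 were higher at 0 h, 2 lower and 2 higher in MB468 at 2 h, and 4 lower for the 12 h difference. Without a low-count filter and with only the groups compared, 2 were higher at 0 h and 2 higher in MB468 at 2 h. DESeq2's Wald test gave 2 lower in MB468res-R8 at 2 h. The causes were not tested.

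Leaving out each library in turn gave 25 to 29 lower and 0 to 1 higher at 0 h, 30 to 33 lower in MB468 and 25 to 27 in MB468res-R8 at 0.5 h, 4 to 6 lower and 2 to 4 higher in MB468 at 2 h, 0 to 2 lower and 0 to 1 higher in MB468res-R8 at 2 h, 30 to 32 higher and 5 lower in MB468 at 12 h, and 38 to 39 higher and 0 to 1 lower in MB468res-R8 at 12 h. The difference between the lines gave 0 to 1 higher at 0.5 h, and 28 to 29 higher and 4 to 7 lower at 12 h. Medians of the 40 genes kept their sign in every comparison with a median beyond 0.1, under all alternatives run. The size was not always kept, since in MB468 at 12 h the median went from 0.24 to 0.01 with spike-in totals. Medians closer to 0 moved as well with spike-in totals. They went from 0.01 to -0.41 in MB468 at 2 h and from -0.01 to 0.37 for the 2 h difference between the lines.

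Same-numbered libraries did not all correlate above 0.1 in any comparison (means from -0.1436 to 0.2748). The highest single correlation was 0.4643, in MB468res-R8 at 2 h against 0 h. The labels do not say whether same-numbered libraries were handled together, and the main model held no pairing. With the replicate block, 27 members were lower and 1 higher at 0 h, 31 and 29 lower at 0.5 h, and 33 and 38 higher at 12 h. With 11745553 counts in the smallest library, RRN3 had as few as 25 counts in a library, where every other member had at least 268, and it had the widest standard errors of the members.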
